A study of Rattus norvegicus with 9 samples.

Results

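The respiratory chain genes described here are 86 of the 19101 named genes on the array. They are all genes whose deposited symbol begins with Ndufa, Ndufb, Ndufc, Ndufs, Ndufv, Uqcr, Atp5 or Cox followed by a digit from 4 to 8, together with Sdha, Sdhb, Sdhc and Sdhd. The rule uses symbols and no measured value, but it was set with earlier results of these data known. By symbol, 37 belong to complex I, 4 to complex II, 6 to complex III, 16 to complex IV and 16 to complex V, and 4 are Ndufaf genes, which help to assemble complex I. The other 3 match by symbol alone: Cox4nb is now named Emc8, a subunit of a protein complex of the endoplasmic reticulum, Atp5s is now Dmac2l and Atp5sl is now Dmac2. Ndufa4 stands under complex I by its symbol, although its protein is now placed in complex IV. For 7 members (Ndufa10, Ndufa10l1, Ndufb4, Ndufb4l1, Atp5g1, Atp5g2 and Atp5hl1) the probe set can also bind related transcripts, and 0 of these 7 passed the test between groups by limma (4 at an unadjusted p under 0.05). Subunits encoded by mitochondrial DNA do not match the symbols, and Cox7a1 and Cox6b1 are not analysed here.

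The respiratory chain lies in the inner mitochondrial membrane. Complexes I and II take electrons from NADH and succinate, complex III passes them on to cytochrome c, and complex IV hands them to oxygen. Complexes I, III and IV move protons out of the matrix as they work, and complex V, the ATP synthase, uses the return of those protons to make ATP. Some subunits of complex IV come in a heart and skeletal muscle form and a form used in most other tissues, so bulk skin that holds muscle carries transcripts of both.

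The CGN group was skin of 4 Sprague Dawley rats given carrageenan, a seaweed polysaccharide that provokes acute inflammation and pain, at 30 mg/kg body weight. Swelling of the paw and its sensitivity to pressure were measured after 3 hours, and skin was collected after 4 hours. The control group was skin of 5 untreated Sprague Dawley rats, for which no dose and no hour is recorded here. The labels used here name neither the site of injection nor the area of skin, age or sex, and an effect of carrageenan cannot be told apart from one of the injection or the paw tests. Each array held RNA of 1 rat. Values are deposited array intensities on a linear scale, with a median between 16.7 and 17.81 in the 9 samples. Means of a group are geometric means, and a difference is log2 CGN minus control ± standard error (SE) from limma, called where the Benjamini-Hochberg adjusted p over all named genes was under 0.05. No detection calls were available, so it is not known whether dim probe sets lay above background.

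Transcripts of the respiratory chain tended to be slightly lower in CGN skin than in control skin, and 2 muscle forms of complex IV subunits were much lower. Of the 86 genes, 20 passed the test as lower in CGN, 1 passed as higher and 65 did not pass. That is 24.4% called, against 22.2% of all genes tested, and 23.3% called lower, against 13.5% of all genes tested (8.72% of all genes were called higher). Most members were brighter than the median intensity of the arrays (16.7 to 17.81), and shares for genes of like brightness were not taken. At an unadjusted p under 0.05 there were 38 of the 86 genes, where 33.0% of all genes were. The estimate was below 0 for 74 of the 86 genes, where 52.9% of all genes had an estimate below 0. The median difference was -0.20 on the log2 scale, or -13.2%, beside a median of -0.01 over all genes tested. The 4 CGN arrays lay wholly below the 5 control arrays for 22 members (10.6% of all genes) and wholly above them for 1 (8.44% of all genes). The count of 21 called genes became 12 without control replicate 2 or without CGN replicate 4. Because whole skin was measured, fewer cells of a type and less RNA per cell cannot be told apart.

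**Figure D1:**
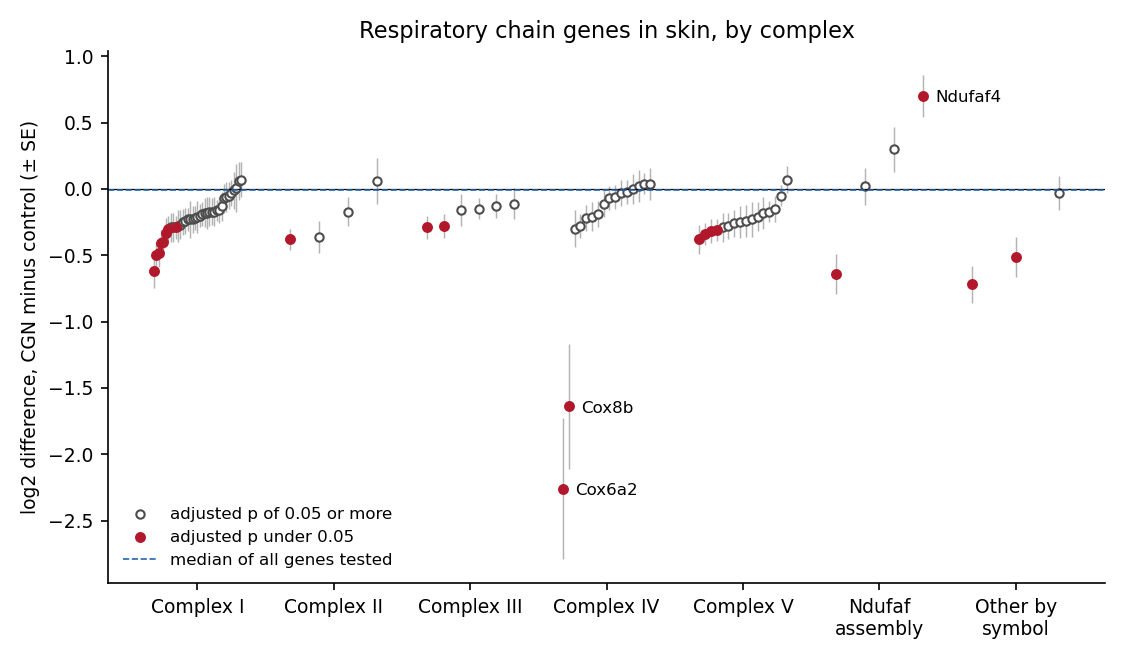
Log2 difference, CGN minus control, of the 86 genes grouped by complex, with bars of ± SE, filled points for an adjusted p under 0.05 and a dashed line at the median of all genes tested. Most points lie between 0 and -0.5, Cox6a2 (-2.26) and Cox8b (-1.64) stand far below the rest, and Ndufaf4 (0.70) is the filled point above 0.

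Complex I, which oxidises NADH, had lower transcripts in CGN skin for 8 of its 37 genes (21.6%, against 13.5% of all genes) and higher ones for 0. Its estimates ran from -0.62 to 0.07 with a median of -0.21, and 34 of the 37 were below 0, where 52.9% of all genes were.

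Ndufs3, a core subunit of the arm that reaches into the matrix, had intensities of 703, 649, 675 and 549 in the 4 CGN arrays, against 1022, 910, 861, 868 and 889 in the 5 control arrays. Every CGN array was below every control array, and the difference was -0.50 ± 0.10 (adjusted p = 0.00437 by limma). Ndufv3, a small accessory subunit beside the flavin site, read 170, 173, 128 and 128 in CGN and 211, 240, 227, 199 and 264 in control skin. It had the lowest estimate of the complex, -0.62 ± 0.13 (adjusted p = 0.0062 by limma), again with groups that did not overlap. Ndufs7, which holds the iron-sulfur cluster nearest to ubiquinone, read 446, 415, 367 and 399 in CGN and 660, 544, 631, 497 and 523 in control skin (-0.48 ± 0.11, adjusted p = 0.00893 by limma). These 3 genes stayed past the threshold in all 16 other settings of the fit that were tried.

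The remaining called genes of complex I changed less or less firmly. The accessory subunits Ndufa6 and Ndufb10 were lower by -0.41 ± 0.10 and -0.40 ± 0.10 (limma adjusted p = 0.0168 and 0.0187). Ndufs1, the large subunit with several iron-sulfur clusters, averaged 193 in CGN and 238 in control skin (-0.30 ± 0.10, adjusted p = 0.0467 by limma) and was past the threshold in 4 of the 16 other settings. Ndufv1, the NADH-binding subunit, averaged 1730 in CGN and 2120 in control skin (-0.29 ± 0.09, adjusted p = 0.0372 by limma) and kept its call in 6 of 16. Its partner Ndufv2 differed by -0.33 ± 0.11 (adjusted p = 0.0454 by limma), with groups that overlapped, and also kept its call in 6 of 16. Ndufa7, an accessory subunit, had the highest estimate of the complex at 0.07 ± 0.13 (95% interval -0.21 to 0.36), and Ndufa4 differed by -0.18 ± 0.11 (95% interval -0.43 to 0.06); neither passed. Ndufa6, Ndufb10 and Ndufv2 are named because they were called, after their values were seen.

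Complex II feeds electrons from succinate and is also an enzyme of the citric acid cycle. Of its 4 subunits, Sdha passed as lower (25.0%, against 13.5% of all genes) and the other 3 did not pass. The median over all 4 was -0.27. Sdha, the flavoprotein that oxidises succinate, had intensities of 2485, 2209, 2476 and 2335 in the CGN arrays, against 3029, 3157, 3124, 3186 and 2950 in the control arrays. The groups were separate and tight within themselves, and the difference was -0.38 ± 0.08 (adjusted p = 0.00567 by limma), past the threshold in all 16 other settings. With replicate number as a block in the fit it was only just past (limma adjusted p = 0.05 after rounding). Sdhd, a membrane anchor, just missed at -0.36 ± 0.12 (adjusted p = 0.0514 by limma), with CGN values of 292 to 393 against control values of 387 to 479. It passed in 7 of the 16 other settings. Sdhc, the other anchor, was at -0.17 ± 0.11 (95% interval -0.42 to 0.07). Sdhb, the iron-sulfur subunit, had the highest estimate of the complex at 0.06 ± 0.17 (95% interval -0.32 to 0.43).

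Complex III passes electrons from ubiquinol to cytochrome c. All 6 measured members had an estimate below 0, from -0.29 to -0.11, where 52.9% of all genes were below 0. Of these members, 2 passed as lower (33.3%, against 13.5% of all genes). Uqcrc2, a structural core protein, averaged 1460 in CGN and 1790 in control skin (-0.29 ± 0.09, adjusted p = 0.0414 by limma). Uqcrc1, the other core protein, averaged 1720 in CGN and 2100 in control skin (-0.28 ± 0.09, adjusted p = 0.0457 by limma). The groups of both were separate, but the call was kept in 6 and 7 of the 16 other settings. Uqcrfs1, the Rieske iron-sulfur protein that carries out electron transfer, was at -0.15 ± 0.08 (95% interval -0.33 to 0.02), and Uqcr, now named Uqcr11, at -0.11 ± 0.12 (95% interval -0.38 to 0.16).

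Complex IV, cytochrome c oxidase, held both the largest falls of all 86 genes and many estimates close to 0. The muscle forms Cox6a2 and Cox8b passed as lower, which is 12.5% of the 16 genes, near the 13.5% of all genes, and 0 of the other 14 genes passed, with 2 of them (Cox5b and Cox7a2) at an unadjusted p under 0.05. The median over those 14 was -0.06, with a range of -0.30 to 0.04.

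Cox6a2, the heart and skeletal muscle form of a subunit that tunes the activity of the enzyme, had intensities of 98.8, 37.5, 51.1 and 97.5 in the CGN arrays. Its control arrays read 635, 438, 615, 143 and 126.16. The groups were separate, but control replicates 4 and 5 lay nearer to the CGN arrays than to the other controls. The difference was -2.26 ± 0.53 (adjusted p = 0.0111 by limma), a level 4.8-fold higher in control skin, and it passed in all 16 other settings. Cox8b, the muscle form of a small structural subunit, read 25.0, 13.3, 13.2 and 22.3 in CGN and 85.6, 67.1, 131, 26.4 and 25.9 in control skin. It was dim in CGN skin, where its mean of 17.7 lay within the range of the array medians (16.7 to 17.81). Whether those readings lay above background is not known, and its difference and slopes rest on them. The same 2 controls were low, and the lowest of them stood just above the highest CGN array. Its difference was -1.64 ± 0.47 (adjusted p = 0.0272 by limma), and the call was kept in 11 of 16 other settings (lost without control replicate 1 or 2, without CGN replicate 2 or 3, and with a trended, robust prior; largest adjusted p = 0.0795).

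The forms of the same subunits that most tissues use did not pass. Cox6a1 read 1229, 1443, 1589 and 1182 in CGN and 1513, 1493, 1497, 1330 and 1445 in control skin (-0.11 ± 0.10, 95% interval -0.34 to 0.12). Cox8a read 3541, 3749, 4347 and 3627 in CGN and 4337, 3943, 4254, 3776 and 3689 in control skin (-0.07 ± 0.09, 95% interval -0.28 to 0.14). The groups of both genes overlapped. The difference between the pair was tested itself, as the change in the muscle form minus the change in its partner, by a 2-sided exact permutation test over the 9 samples, adjusted over the 2 pairs. It was -2.16 for Cox6a2 against Cox6a1 (exact p = 0.0238, adjusted 0.0476) and -1.57 for Cox8b against Cox8a (exact p = 0.0556, adjusted 0.0556), where 4 samples against 5 allow no p below 0.00794. That p counts the regroupings with an absolute difference at least as large. With a 2-sided p taken as double the smaller tail, an alternative added after the data were seen, the adjusted p was 0.0317 for the first pair and 0.0476 for the second (exact permutation test), so the call of Cox8b against Cox8a depends on how the 2 tails are counted. Without any 1 array the pair Cox6a2 and Cox6a1 lay between -2.49 and -1.86. Without any 1 control array its exact p was 0.0286, the smallest that 4 against 4 allow, and 0.0571 after adjustment. Without CGN replicate 2, 3 or 4 the exact p was 0.0357 (adjusted 0.0714), and without CGN replicate 1 the same p was 0.0357 after adjustment too.

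**Figure D2:**
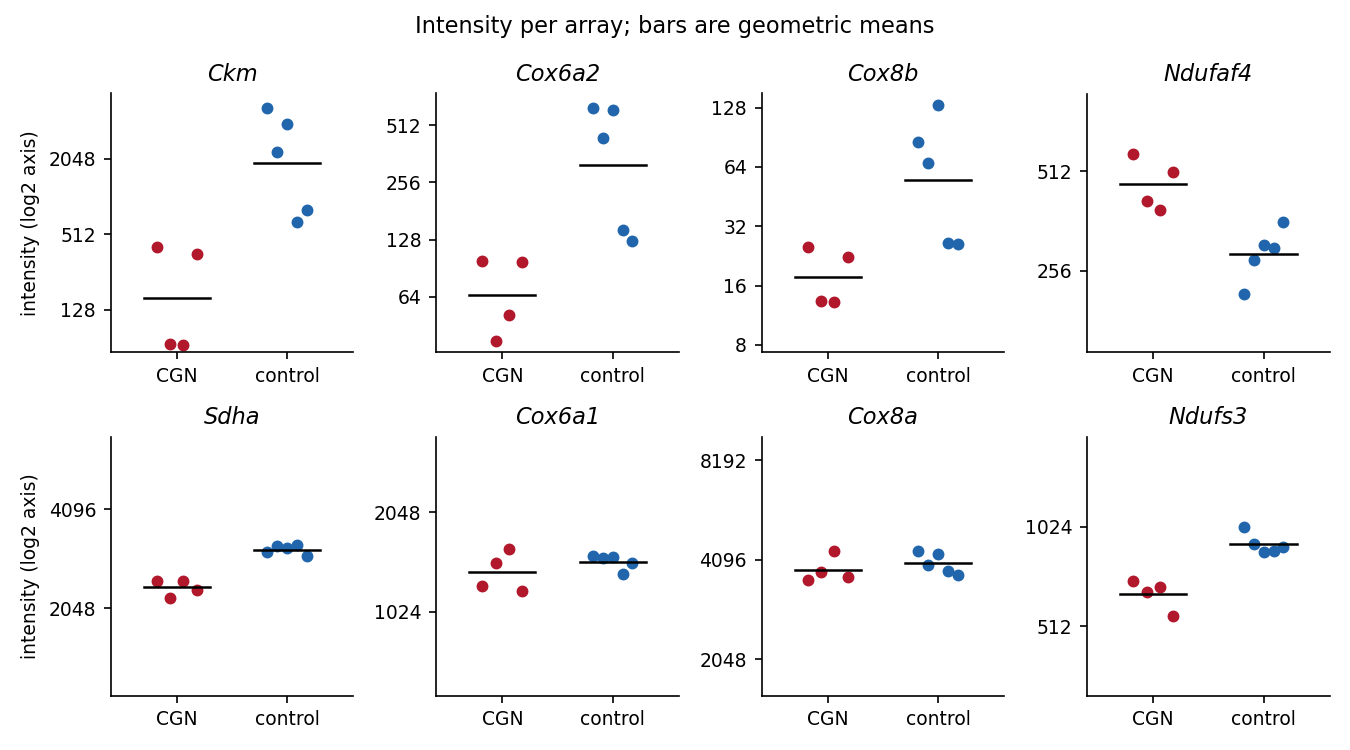
Intensity of 8 genes in each array on log2 axes, CGN left of control, with bars at the geometric mean. Ckm, Cox6a2 and Cox8b are low in all CGN arrays and spread widely among the controls, and Ckm spreads widely in CGN too. Sdha and Ndufs3 form tight separate groups, Ndufaf4 is higher in CGN, and Cox6a1 and Cox8a overlap.

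The promoters of the muscle forms are set beside those of Cox8a and Sdha, because the muscle forms are the members that changed most. The sequences are from RefSeq (rat assembly GRCr8), 300 bases each, from 250 before the gene's start to 50 after, read on the gene's own strand, with matches to the motifs described next in capitals.
Cox6a2, chr1:192219667-192219966, minus strand: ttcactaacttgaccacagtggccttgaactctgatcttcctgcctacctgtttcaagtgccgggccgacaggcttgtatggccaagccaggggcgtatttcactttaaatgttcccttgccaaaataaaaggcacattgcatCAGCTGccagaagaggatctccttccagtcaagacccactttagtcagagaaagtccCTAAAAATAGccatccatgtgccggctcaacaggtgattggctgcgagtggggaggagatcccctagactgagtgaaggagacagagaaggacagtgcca
Cox8b, chr1:205408224-205408523, minus strand: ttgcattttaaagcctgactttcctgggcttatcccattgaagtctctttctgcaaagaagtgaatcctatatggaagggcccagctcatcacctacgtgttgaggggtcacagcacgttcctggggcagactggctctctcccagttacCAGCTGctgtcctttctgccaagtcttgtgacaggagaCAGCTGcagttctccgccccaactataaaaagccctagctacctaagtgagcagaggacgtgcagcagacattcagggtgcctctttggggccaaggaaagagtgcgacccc
Cox8a, chr1:213833574-213833873, minus strand: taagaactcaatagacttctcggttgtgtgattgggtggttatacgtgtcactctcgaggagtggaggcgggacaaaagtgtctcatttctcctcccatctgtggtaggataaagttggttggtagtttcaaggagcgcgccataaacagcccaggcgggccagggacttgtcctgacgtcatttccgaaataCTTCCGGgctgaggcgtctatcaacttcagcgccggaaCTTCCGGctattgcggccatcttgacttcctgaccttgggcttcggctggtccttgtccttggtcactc
Sdha, chr1:30764303-30764602, plus strand: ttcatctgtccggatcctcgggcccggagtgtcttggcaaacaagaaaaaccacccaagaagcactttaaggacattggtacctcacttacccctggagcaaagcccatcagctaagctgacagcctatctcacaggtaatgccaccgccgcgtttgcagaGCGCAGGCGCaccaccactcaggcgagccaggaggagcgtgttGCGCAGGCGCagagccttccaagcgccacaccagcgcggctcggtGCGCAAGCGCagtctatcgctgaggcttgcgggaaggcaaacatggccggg

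Of the 86 genes, 75 had a promoter in the RefSeq table, and each was searched on both strands for motifs of factors known to act on mitochondrial or muscle genes. The Cox6a2 window holds 1 myogenic E-box (CAGCTG) starting 107 bases before the gene's start and 1 match to the MEF2 motif starting 50 bases before it. The Cox8b window holds 2 E-boxes, 100 and 62 bases before the start. The Sdha window holds 3 matches to the NRF1 motif, 89, 46 and 1 bases before the start, and the Cox8a window holds 2 to the ETS motif (CCGGAAG), 57 and 19 bases before it. Over the 75 promoters, the NRF1 motif was found in 20.0%, against 4.71% of all 27457 promoters of that length, the ETS motif in 28.0% against 9.22%, and the YY1 motif (AANATGGCG) in 18.7% against 3.33%. The estrogen-related receptor motif (TNAAGGTCA) was found in 4.0% against 1.15%, the E-box in 16% against 15.1% and the MEF2 motif in 1.33% against 3.37%. A match describes these letters and is not evidence of binding.

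The other genes of complex IV did not pass, with estimates from -0.30 to 0.04. Cox4i1, the common form of a regulatory subunit, was at -0.21 ± 0.11 (95% interval -0.45 to 0.02), and Cox4i2, its lung form, was at 0.04 ± 0.08 at mean intensities of 23.6 in CGN and 23.0 in control skin. Cox5b, a zinc-binding subunit, was at -0.28 ± 0.09 (adjusted p = 0.0567 by limma) and passed in 2 of the 16 other settings. Cox5a was at -0.02 ± 0.09 (95% interval -0.21 to 0.18). Cox7a2, the common form of its subunit, was at -0.22 ± 0.10, with CGN values of 2158 to 2905 all below control values of 2946 to 3101. That gene did not pass over all genes (adjusted p = 0.139 by limma), although it did after quantile normalization. Cox7a2l, which joins complexes III and IV into larger assemblies, was at -0.19 ± 0.10 (95% interval -0.42 to 0.04). Cox7b had the highest estimate of the complex at 0.04 ± 0.12. The testis forms Cox6b2 (-0.30 ± 0.14) and Cox8c (-0.06 ± 0.09) were dim in both groups, with means of 31.9 in CGN and 39.1 in control skin for Cox6b2 and of 8.61 in CGN and 8.97 in control skin for Cox8c. Cox6b2 passed in 1 of the 16 other settings.

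Complex V, the ATP synthase, had lower transcripts in CGN skin for 4 of its 16 genes (25.0%, against 13.5% of all genes). The median was -0.24, and 15 estimates were below 0, where 52.9% of all genes were. Of the 5 genes of its catalytic head (Atp5a1, Atp5b, Atp5c1, Atp5d and Atp5e), 2 passed (40.0%), with a median of -0.29. Of the other 11 genes 2 passed (18.2%), with a median of -0.23. Atp5a1, now Atp5f1a, is the alpha subunit of the head. It read 4130, 3948, 4302 and 4004 in the CGN arrays and 5303, 5292, 4842, 5062 and 4945 in the control arrays. Its groups were separate (-0.31 ± 0.08, adjusted p = 0.0137 by limma), and its second probe set gave -0.41 (adjusted p = 0.0231 over all probe sets). Atp5c1, now Atp5f1c, the central stalk that turns inside the head, averaged 3110 in CGN and 3940 in control skin (-0.34 ± 0.08, adjusted p = 0.0126 by limma). Atp5o, now Atp5po, which ties the head to the outer stalk, averaged 2890 in CGN and 3770 in control skin and had the lowest estimate of the complex (-0.38 ± 0.11, adjusted p = 0.0261 by limma). Atp5j2, now Atp5mf, a membrane subunit named after its value was seen, was at -0.32 ± 0.09 (adjusted p = 0.0267 by limma). The calls of Atp5c1, Atp5o and Atp5j2 held in 14, 9 and 8 of the 16 other settings, and that of Atp5a1 in 15. The other, dimmer probe sets of these 3 genes did not pass: those of Atp5c1 were at -0.09, -0.14 and 0.03 (mean intensities 123, 77.1 and 17.7), that of Atp5o at 0.20 (mean intensity 23.1) and that of Atp5j2 at -0.36 (mean intensity 44.0). Atp5b, now Atp5f1b, the catalytic beta subunit, was lower in every CGN array (7808 to 8559) than in any control array (8773 to 9775) but did not pass at -0.17 ± 0.08 (adjusted p = 0.145 by limma). Atp5g3, now Atp5mc3, which encodes the same ring subunit as Atp5g1 and Atp5g2, had the highest estimate at 0.07 ± 0.10 (95% interval -0.15 to 0.30).

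The 4 Ndufaf assembly factors went in different directions. Ndufaf4 read 577, 414, 391 and 508 in CGN and 218, 276, 306, 299 and 359 in control skin, so that all CGN arrays were above all control arrays. It was the 1 member that rose past the threshold (0.70 ± 0.16, adjusted p = 0.00919 by limma). Ndufaf3, its partner in early assembly of complex I, read 181, 198, 235 and 145 in CGN and 298, 309, 352, 264 and 247 in control skin. It fell with groups that did not overlap (-0.64 ± 0.15, adjusted p = 0.0101 by limma), and both calls held in all 16 other settings. Ndufaf1 (0.30 ± 0.17) and Ndufaf2 (0.02 ± 0.14) did not pass, with groups that overlapped; both are named here to complete the set of 4. Of the 3 genes that match by symbol alone, all named after their values were seen, Atp5sl, now Dmac2, a factor in building the membrane arm of complex I, had the smallest adjusted p of all 86 genes (-0.72 ± 0.14, adjusted p = 0.00402 by limma). Its intensities were 245, 161, 202 and 206 in CGN and 341, 343, 360, 261 and 370 in control skin, with every CGN array below every control array. Atp5s, now Dmac2l, was at -0.51 ± 0.15 (adjusted p = 0.0327 by limma) with groups that overlapped and a call kept in 7 of 16 other settings, and Cox4nb was at -0.03 ± 0.13.

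The levels of 2 members followed the muscle creatine kinase gene Ckm from array to array, and no such relation was called for the other 84. Ckm read 404, 68.0, 67.7 and 357 in the CGN arrays and 5268, 2345, 3869, 647 and 803 in the control arrays (-3.57 ± 0.75, adjusted p = 0.00638 by limma). The groups were separate in Ckm, so no correlation over all 9 arrays is given. The relation was taken instead as a slope on log2 Ckm with group in the same limma fit, which uses differences between arrays of 1 group. The slope was 0.66 ± 0.08 for Cox6a2 (adjusted p = 0.00651 by limma) and 0.55 ± 0.09 for Cox8b (adjusted p = 0.0489 by limma), in log2 units per doubling of Ckm. These were 2 of 86 members called, all positive, against 0.277% of all genes (53 positive, 0 negative).

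Within CGN skin, replicates 1 and 4 had the higher Ckm and also the higher Cox6a2 and Cox8b. Within control skin, replicates 1, 2 and 3 were higher than replicates 4 and 5 in all 3 genes. The order of the CGN arrays in Cox8b was that of Ckm, and Cox6a2 differed from it by the exchange of replicates 2 and 3. The slope of Cox6a2 ran from 0.59 to 0.79 over 18 other settings and passed in 15 of them. It did not pass without control replicate 4 (adjusted p = 0.0548), with Acta1, the skeletal muscle actin, in place of Ckm (adjusted p = 0.412) or in 1 other setting. The slope of Cox8b ran from 0.48 to 0.65 and passed in 7 of the 18. It did not pass without control replicate 1, 2, 4 or 5 (adjusted p = 0.153, 0.114, 0.34 and 0.177) or without CGN replicate 2, 3 or 4 (adjusted p = 0.0727, 0.0703 and 0.063). It also missed with median centring (adjusted p = 0.0529), with the mean of probe sets (adjusted p = 0.0557), with Acta1 (adjusted p = 0.552) and in 1 other setting.

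The other 84 members had slopes between -0.17 and 0.10, with a median of -0.02. At an unadjusted p under 0.05 there were 5 of the 86 against 6.08% of all genes tested, 3 with a positive slope (3.12% of all genes) and 2 with a negative one (2.97% of all genes). Sdha had a slope of 0.01 ± 0.03 (95% interval -0.07 to 0.08), Ndufs3 of 0.01 ± 0.04 (95% interval -0.08 to 0.10) and Atp5a1 of 0.00 ± 0.03 (95% interval -0.07 to 0.08). These intervals bound how far the 3 genes moved with Ckm inside a group, where Ckm itself varied widely. The lowest slope was that of Ndufaf1 (-0.17 ± 0.05, unadjusted p = 0.00315, adjusted p = 0.409 by limma).

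**Figure D3:**
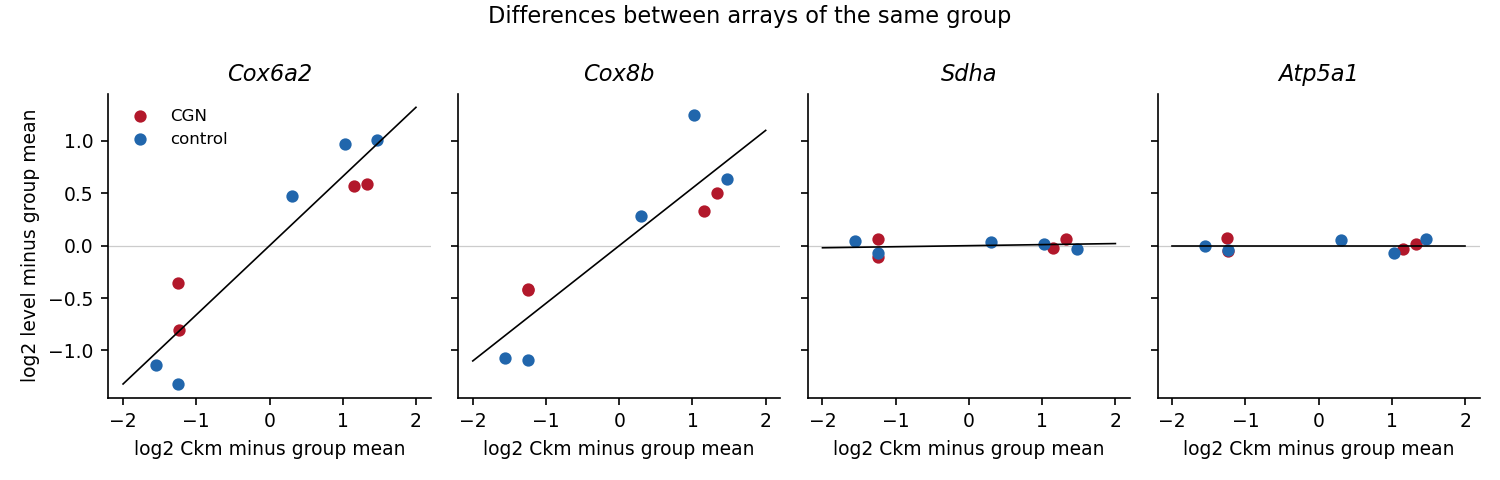
Log2 level of Cox6a2, Cox8b, Sdha and Atp5a1 against log2 Ckm, each minus its own group's mean, with 4 CGN and 5 control arrays and the fitted slope. The points of Cox6a2 (slope 0.66) and Cox8b (slope 0.55) climb with Ckm in both groups, and those of Sdha (0.01) and Atp5a1 (0.00) lie flat.

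With Ckm in the fit, the difference between the groups is the one the fit gives at equal Ckm. No such arrays were observed, because Ckm was 67.7 to 404 in CGN and 647 to 5268 in control skin. The value rests on extending a slope shared by both groups across that gap. In that fit Cox6a2 was at 0.10 ± 0.35 (95% interval -0.68 to 0.88) and Cox8b at 0.32 ± 0.40 (95% interval -0.57 to 1.2). Over 18 other settings Cox6a2 ran from -0.28 (without control replicate 5) to 0.39 (without CGN replicate 1) and was below 0 in 3, and Cox8b ran from -0.01 (with Acta1 in place of Ckm) to 0.57 (without CGN replicate 4). The other 84 members moved too, with a median of -0.29 with Ckm and -0.19 without it. Of these, 41 moved by more than their own SE without Ckm, and 11 changed sign. The size of a gene's move is set by its slope on Ckm and the group difference in Ckm (-3.57). Of these 84 slopes 0 were called, so the single moves given next rest on uncalled slopes. Ndufaf1 moved furthest down, to -0.32 ± 0.20 with Ckm against 0.30 ± 0.17 without it. Atp5sl was at -0.37 ± 0.22 with Ckm and -0.72 ± 0.14 without it, Ndufs7 at -0.17 ± 0.16 and -0.48 ± 0.11, and Ndufv2 at -0.53 ± 0.18 and -0.33 ± 0.11, in the same order. Sdha was at -0.35 ± 0.15 with Ckm, Ndufs3 at -0.47 ± 0.18, Ndufv3 at -0.65 ± 0.24, Ndufaf3 at -0.68 ± 0.27 and Ndufaf4 at 0.72 ± 0.29. By limma 0 of the 86 passed in this fit, against 2.58% of all genes, and the smallest adjusted p was 0.167. At an unadjusted p under 0.05 there were 20, against 15.6% of all genes, with 19 lower (8.96% of all genes) and 1 higher (6.66% of all genes). The errors were larger, with a median SE of 0.188 against 0.106 without Ckm, because Ckm and group were correlated (r = -0.823 over the 9 arrays), which made the variance of the group term 3.1 times as large. A missing call here therefore does not show that a member is equal in both groups at equal Ckm.

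**Figure D4:**
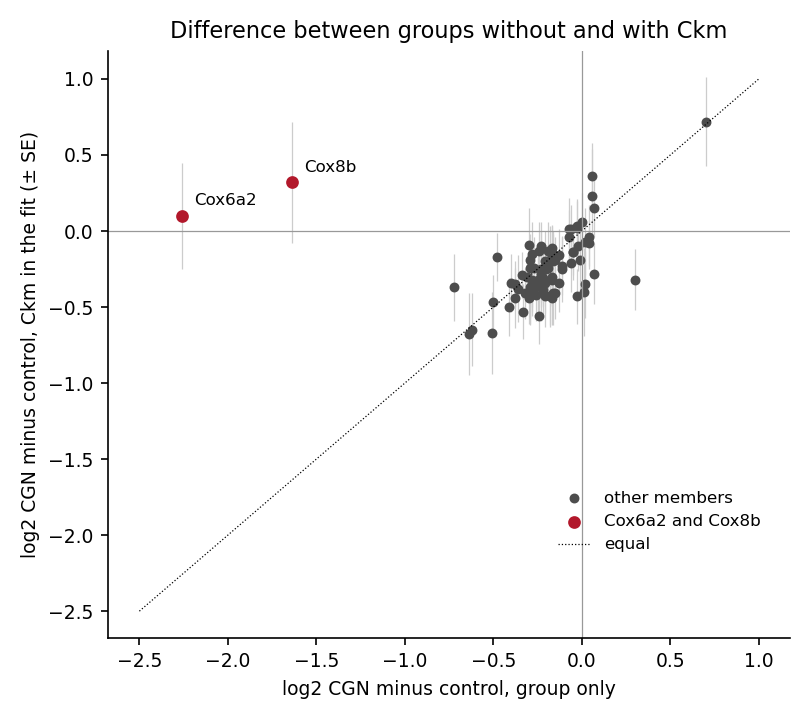
Log2 difference, CGN minus control, of the 86 genes without Ckm (x axis) and with Ckm in the fit (y axis, bars ± SE), with a dotted line of equality. Cox6a2 and Cox8b leave the line, from -2.26 and -1.64 without Ckm to 0.10 and 0.32 with it. Other genes moved less, up to Ndufaf1 with 0.30 without Ckm and -0.32 with it.

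Markers of other cells give the setting of these values. Of 23 measured skeletal muscle markers, 21 were lower in CGN (13.5% of all genes were) and 0 higher, with a median of -3.38. Their summed intensity was 1450 to 9050 in CGN and 16400 to 81700 in control skin. Of the 22 markers other than Ckm, 14 had a called positive slope on Ckm, against 0.277% of all genes. Of 5 neutrophil markers 5 were higher in CGN, where 8.72% of all genes were called higher. Their summed intensities were 5940 to 16800 in CGN and 1880 to 2680 in control skin. Of 4 macrophage markers 3 were higher, with sums of 20200 to 27000 in CGN and 4800 to 8120 in control skin. Keratinocyte markers summed to 58200 to 60700 in CGN and 54000 to 65600 in control skin, with 1 of 7 called, lower. None of the 3 brown fat markers and none of the 5 white fat markers passed by limma (0 at an unadjusted p under 0.05), and Ucp1, the defining gene of brown fat, averaged 14.3 in CGN and 13.0 in control skin. The part of the neutrophil and macrophage markers in the differences of the respiratory chain genes was not tested.

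Other genes of mitochondria differed between the groups in both directions. Of 28 measured assembly factors outside the symbol rule, 10 were lower (35.7%, against 13.5% of all genes) and 2 higher, with a median of -0.23. Ecsit, an assembly factor of complex I, fell to 176 in CGN skin, against 349 in control skin (-0.98 ± 0.10, adjusted p = 7.66e-05 by limma), and Sdhaf1, which helps to give Sdhb its iron-sulfur clusters, rose to 574 in CGN, against 312 in control skin (0.88 ± 0.12, adjusted p = 0.000463 by limma). Among 12 genes of electron carriers and exchange, 3 were lower (25.0%) and 1 higher, with a median of -0.16. Cycs, the mobile electron carrier cytochrome c, was higher (0.46 ± 0.10, adjusted p = 0.00926 by limma), with mean intensities of 3650 in CGN and 2650 in control skin. Slc25a4, the ADP and ATP exchanger of heart and muscle, was lower (-0.74 ± 0.14, adjusted p = 0.00362 by limma). Of these 12 genes 1 had a called positive slope on Ckm, against 0.277% of all genes. It was Ckmt2, named after its value was seen (slope 0.50 ± 0.06, adjusted p = 0.00529 by limma), which was also lower in CGN (-1.69 ± 0.40, adjusted p = 0.0109 by limma).

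Genes that feed the chain included a group with many lower members and one near the share of all genes. Of 14 genes of fatty acid oxidation, 7 were lower (50.0%, against 13.5% of all genes) and 0 higher, with a median of -0.41 and all 14 estimates below 0. They included Cpt2, which releases fatty acids from carnitine inside the mitochondrion (-0.91 ± 0.13, adjusted p = 0.000699 by limma), and Echs1, the short-chain enoyl-CoA hydratase (-0.69 ± 0.13, adjusted p = 0.00386 by limma). Of the 14 genes 1 had a called positive slope on Ckm, against 0.277% of all genes. It was Cpt1b, named after its value was seen (slope 0.37 ± 0.06, adjusted p = 0.0309 by limma). Of 18 genes of the citric acid cycle and pyruvate dehydrogenase, 3 were lower (16.7%, near the 13.5% of all genes) and 1 higher, with a median of -0.16. Idh2, the NADP-linked isocitrate dehydrogenase, was lower (-0.82 ± 0.16, adjusted p = 0.0041 by limma) and Dlst, a subunit of 2-oxoglutarate dehydrogenase, was higher (0.43 ± 0.11, adjusted p = 0.0194 by limma). Among the uncoupling proteins 1 of 3 passed: Ucp3, the muscle form, averaged 29.2 in CGN and 125 in control skin (-2.10 ± 0.61, adjusted p = 0.03 by limma), with groups that overlapped.

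The gene groups that build mitochondria were mixed. Of 68 genes of the mitochondrial ribosome, which makes the subunits encoded by mitochondrial DNA, 15 were lower (22.1%, against 13.5% of all genes) and 0 higher, with a median of -0.20. Mrps24 (-0.55 ± 0.07, adjusted p = 0.000465 by limma) and Mrpl34 (-1.07 ± 0.17, adjusted p = 0.00134 by limma) had the smallest adjusted p. Of 22 import genes, 2 were lower (9.09%) and 2 higher, with a median of -0.03, led by Timm29 (-0.84 ± 0.13, adjusted p = 0.00122 by limma) and Timm10 (0.41 ± 0.10, adjusted p = 0.0124 by limma), both of the inner membrane import path. Of 16 regulators, 3 were lower (18.8%) and 3 higher, with a median of -0.01. Pprc1, a coactivator related to PGC-1alpha, was higher (0.60 ± 0.09, adjusted p = 0.0011 by limma), with means of 929 in CGN and 615 in control skin. Polrmt, the RNA polymerase that transcribes mitochondrial DNA, was lower (-0.62 ± 0.11, adjusted p = 0.0026 by limma), with means of 138 in CGN and 212 in control skin.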

How the data were processed

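Skin of 4 CGN-treated and 5 control rats was measured on 1-colour arrays. The deposited values are intensities on a linear scale; per the submitters' processing notes the authors used RMA, which corrects background, normalizes between arrays and combines probes, in an unnamed version. The genome build is not given in the sources used here. The columns number the CGN samples 1, 2, 3 and 5, the labels 1 to 4, and the labels' numbers were used. Names were updated through a RefSeq gene table (GRCr8). Of 103 probe sets of the 86 genes, the one with the highest mean log2 intensity stood for its gene. Log2 values, without pseudocount or filter, were fitted with limma 3.58.1 in R 4.3.3 (lmFit, eBayes, 2-sided, Benjamini-Hochberg over 19101 genes, or 19100 where Ckm was a covariate). The test between groups and the slope on Ckm were also tried on simulated data. The group difference with Ckm in the fit was not scored there. How many arrays there were sets the precision. Members and lists were chosen with earlier results of these data known. Genes named are, per group of members, up to 3 called ones with the smallest adjusted p, the lowest and the highest estimate, tissue forms and core subunits, up to 2 called genes of each other list, and Ckm. The labels do not state that replicate numbers pair the samples. Deviations of samples with the same number in the labels correlated at -0.28 to 0.0445, which cannot exclude a pairing. The number 5 of the CGN column was not used for this. The other settings tried are in the closing section.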

Additional observations from a re-analysis of the deposited data

Results flagged for a closer look

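Within groups of 4 or 5 arrays, 3 of 84 tested sets of values had 1 array standing apart by Dixon's criterion at 95%, which by chance flags about 1 group in 20. Cox8c had an intensity of 8.95 in CGN replicate 1, where the other CGN arrays read 8.48 to 8.51, and 10.36 in control replicate 2, where the other controls read 8.5 to 8.96. These values are among the dimmest of the members, and no detection calls show whether they lie above background. Atp5sl had 260.88 in control replicate 4, where the other controls read 340.93 to 370.38, and this array still lay above all CGN arrays of the gene.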

How the results depend on the processing

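The count of 21 changed members lay between 11 and 28 over 18 other settings: 13 with median centring, 11 with a replicate block, 28 with quantile normalization, and 12 to 19 when each array was left out (12 without control replicate 2 or CGN replicate 4). Of the 21, 9 stayed past the threshold in all 16 settings that give each gene 1 value (Ndufaf3, Ndufaf4, Ndufa6, Ndufs3, Ndufs7, Ndufv3, Sdha, Cox6a2 and Atp5sl). The count of 2 members following Ckm was 1 with median centring and with the mean of probe sets, 0 with a replicate block and with Acta1 in place of Ckm, and 0 to 2 when each array was left out (0 without control replicate 4). The count with Ckm in the fit was 0 in all 19 settings. The pair Cox6a2 and Cox6a1 was at -2.03 with quantile normalization (exact permutation, adjusted p = 0.0556) and -2.49 to -1.86 when each array was left out, past the threshold only without CGN replicate 1; 4 against 4 allow no exact p below 0.0286, and 3 against 5 none below 0.0179. The pair Cox8b and Cox8a was at -1.82 to -1.28, and past the threshold at -1.77 without CGN replicate 1. With the p as double the smaller tail, added after the data were seen, that pair, at -1.57, passed (exact adjusted p = 0.0476). The pair of Cox7a1 and Cox7a2 was not run. Some uncalled members near 0 changed sign. When each array was left out, Ndufa7 ran from -0.03 to 0.17, Sdhb from -0.03 to 0.18, Cox7b from -0.04 to 0.09, Cox4i2 from 0.00 to 0.08 and Cox5a from -0.06 to 0.04. With the replicate block Sdhb and Cox7b were each at -0.03, with quantile normalization Cox7b was at -0.01, and with median centring Cox8c was at 0.00 and Cox5a at 0.04. The causes were not tested. The labels do not state that replicate numbers pair the samples, and a pairing was not excluded. The block is 1 of the settings counted above, and with it the slopes of Cox6a2 and Cox8b had a limma adjusted p of 0.148 and 0.17. Of the called members, 6 have several probe sets, of which 1 (Atp5a1) passed on another. With the adjustment over all probe sets, 4 of these 6 still passed on the probe set used. Ndufv2 (limma adjusted p = 0.058) and Uqcrc2 (limma adjusted p = 0.0534) did not. The other probe set of Ndufv2 was at 0.14 (mean intensity 7.61) and that of Uqcrc2 at -0.17 (mean intensity 56.1). Of the 17 other probe sets of all members, 14 had a mean intensity under 100. With members taken by updated symbol, a setting added after the data were seen, the counts were 21, 2 and 0, as before.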
